A study of Mus musculus with 12 samples.

Results

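The genes of the ionotropic and metabotropic receptors for glutamate and GABA were followed in cultured mouse astrocytes. Members were the genes whose symbol names a subunit of the AMPA, kainate, NMDA or delta receptors, a metabotropic glutamate receptor, a GABA-A subunit or a GABA-B subunit. The rule was chosen with earlier results of these data known. By gene symbol alone it took 17 of the 18903 genes in the table. They were 4 AMPA, 3 kainate, 1 delta and 2 NMDA receptor genes, 6 GABA-A genes and 1 GABA-B gene. In the GENCODE annotation 47 genes carry such a symbol. The other 30, among them all 8 metabotropic glutamate receptors, *Grin1*, *Gabbr2* and the gamma subunits, had no row in the table. They were not analysed here, so the counts of expressed and called receptor genes below cover the 17 only.

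Glutamate opens AMPA, kainate and NMDA receptors, which are cation channels of 4 subunits each, and metabotropic receptors act through G proteins instead. GABA opens GABA-A receptors, chloride channels put together from alpha, beta and further subunits, while the GABA-B receptor is a G protein-coupled dimer. Astrocytes carry several of these receptors and sense the transmitter that neurons release through them. The AMPA subunit encoded by *Gria2* is known to keep calcium from passing through the channel.

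Astrocytes had been grown from the brains of C57BL/6 mice at postnatal days 1, 6 and 8 (P1, P6 and P8). The mice labelled cKO were hGFAP-Cre::Rack7 fl/fl and those labelled WT were hGFAP-Cre::Rack7 +/+, so that both carried the Cre transgene. There were 2 libraries for each label and time point, 12 in all. The human *GFAP* promoter drives Cre in multipotent neural stem cells from which both neurons and glia arise, the loxP sites flank exons 3 and 4, and the flasks had been shaken to take off microglia and oligodendrocytes. The labels do not say whether the replicates came from separate animals, so the p-values measure only the spread between these libraries.

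Library totals ran from 54413504 to 89183250 counts. *Zmynd8*, the gene that encodes RACK7, had more counts in the libraries labelled cKO, by 0.65 on the log2 scale at P1, 1.04 at P6 and 0.70 at P8 (adjusted p at most 3.16e-05). The paper checked RACK7 protein in WT and cKO primary astrocytes by immunoblot, and reported far fewer RACK7 ChIP-seq peaks in the cKO ones. A count over the whole gene does not test the loss of exons 3 and 4 in these 12 libraries, and genotypes are therefore given as labels. Of 10 astrocyte markers listed 9 were in the table, all with counts in every library, *Gfap* and *Aqp4* with means of 397.5 and 419.5 counts per 1000000 (CPM). Added up, they came at P1 to 2216 to 2253 CPM under the label WT and 2110 to 2155 under the label cKO, 1515 to 1704 and 1405 to 1542 at P6, and 1567 to 1949 and 688 to 702 at P8. Markers of other cells were present too. The 5 fibroblast markers in the table, out of 6 listed, summed to 452 to 465 CPM (WT) and 2124 to 2154 CPM (cKO) at P1, 5429 to 5506 and 2509 to 2685 at P6, and 21120 to 21280 and 6973 to 7179 at P8, and among them *Lum* was at 0 in 2 libraries. The 4 neuron markers of 10 listed summed to 138 to 140 and 132 to 135 CPM at P1, 122 to 134 and 238 to 265 at P6, and 71.0 to 78.3 and 188 to 189 at P8. All 8 microglia markers were in the table and summed to 2830 to 2928 and 2286 to 2335 CPM at P1, 1976 to 2050 and 2343 to 2375 at P6, and 2032 to 2100 and 3934 to 3949 at P8. The 4 endothelial markers of 6 listed summed to 23.8 to 25.6 and 47.6 to 50.2 CPM at P1, 120.0 to 123.3 and 58.5 to 62.5 at P6, and 148 to 161 and 37.0 to 39.9 at P8. Neuroblast, stem and dividing cell markers (4 of 5) summed to 1281 to 1291 and 1318 to 1353 CPM at P1, 1311 to 1324 and 2325 in both libraries at P6, and 455 to 458 and 763.5 to 784 at P8. The endothelial sum was thus higher under the label WT at P6 and P8, and the neuroblast sum under the label cKO. Oligodendrocyte lineage markers (8 of 10) summed to 108 to 119 and 138 to 143 CPM, 191 to 193 and 139 to 149.8, and 168 to 169 and 128.5 to 129.9 in the same order. For mural cells (5 of 7) the sums were 1761 to 1767 and 2605 to 2618 CPM, 2278 to 2331 and 2583 to 2944, and 1899 to 1915 and 2264 to 2278. For choroid plexus and ependyma (4 of 5) they were 220.0 to 227 and 215 to 233 CPM, 77.7 to 93.8 and 132 to 136, and 30.5 to 31.2 and 46.2 to 48.4. Some sums rested mostly on 1 gene, as at P6. There *Stmn2* had means of 101.4 CPM (WT) and 219.4 CPM (cKO), but *Tubb3* 17.45 and 16.88. By the rule given below, 2 neuron markers were called up and 0 down. *Acta2* had 2042 and 2584 CPM, yet 1 mural marker was called up and 3 down. *Nes* had 863.5 and 2029 CPM, with 1 marker of its list called up and 1 down. The part of these cells in the receptor differences given next was not tested, and in bulk RNA fewer cells of a type and less RNA per cell cannot be told apart.

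All 17 receptor genes passed the filter on low counts, and 16 of them had a mean of at least 1 CPM over the 12 libraries. *Gabra3* was the exception with a mean of 0.707 CPM, and it reached 1 CPM in 4 libraries, those from P8. Per kilobase of annotated exon, the scale on which genes can be set beside each other, *Gria3* led with a mean of 15.2 CPM and was followed by *Grik5* with 10.1, *Gabbr1* with 5.98, *Gria1* with 5.29 and *Gria4* with 3.56. Below 1 lay 11 genes, from 0.951 for *Gabrb1* and 0.774 for *Gria2* down to 0.180 for *Gabra3*. The AMPA subunits other than *Gria2* were thus among the most abundant receptor messages in these cultures.

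**Figure D1:**
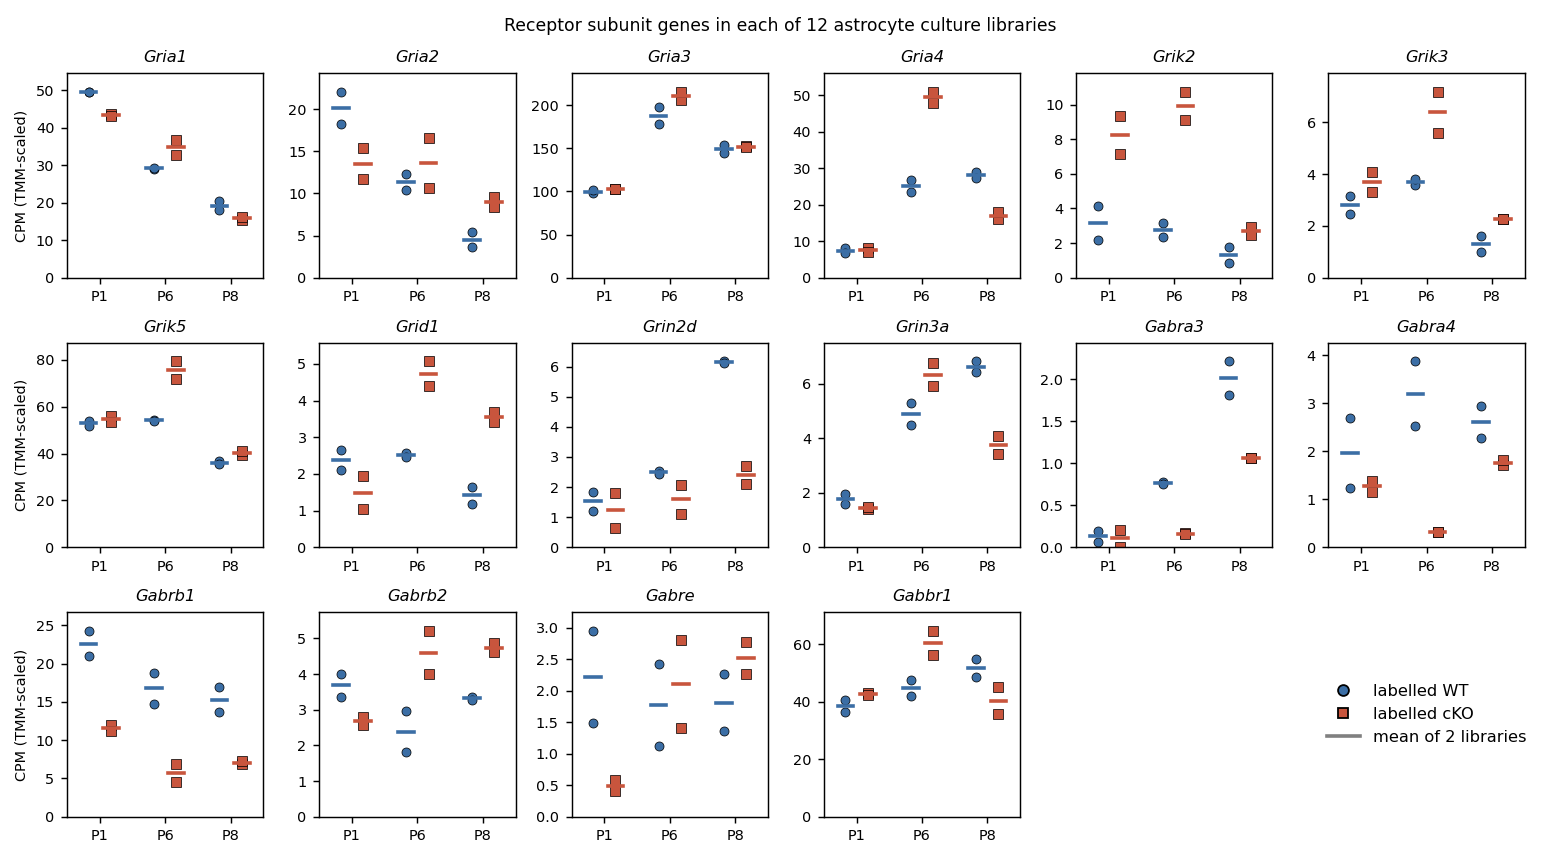
CPM of 16 receptor genes (vertical axes, each from 0) against time point, with a blue circle for each library labelled WT, a red square for each labelled cKO and a bar at the mean of the 2. *Gria4* separates in opposite directions at P6 and P8, and *Gabrb1* lies lower in the cKO-labelled libraries at each time point.

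A gene was called when the quasi-likelihood test in edgeR gave a Benjamini-Hochberg adjusted p below 0.05 over the 17938 genes tested and the fold change was at least 1.5. Between the labels at P1, 0 receptor genes were up-regulated and 2 down-regulated, beside 4.01% and 0.892% of all genes tested; 4 receptor genes had an unadjusted p below 0.05. At P6, 5 rose and 2 fell, beside 7.16% and 6.38%. The P8 comparison called 4 up and 4 down, beside 11.2% and 8.37%. Set beside those shares, the receptor genes called were 11.8% of the 17 for the falls at P1, 29.4% and 11.8% for the rises and falls at P6, and 23.5% each way at P8. The median log2 difference over the receptor genes came to -0.30, 0.37 and 0.03 from P1 to P8, while over all genes it came to 0.00, 0.00 and 0.01. In all, 12 of the 17 were called at some time point, 4 at more than 1 time point and *Gabrb1* at all 3. *Gria4* was the only one of the 12 called in both directions, and *Gabbr1*, *Gabra3*, *Gria1*, *Gria3* and *Grik5* were never called.

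The libraries themselves showed the same order of sizes. Both libraries labelled cKO lay above both labelled WT for 4 receptor genes at P1, 11 at P6 and 8 at P8, and below them for 8, 4 and 8. Over all genes tested the shares above were 25.8%, 29.9% and 37%, and those below were 25.4%, 29.1% and 33.8%. The receptor genes leaned most to one side at P6.

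**Figure D2:**
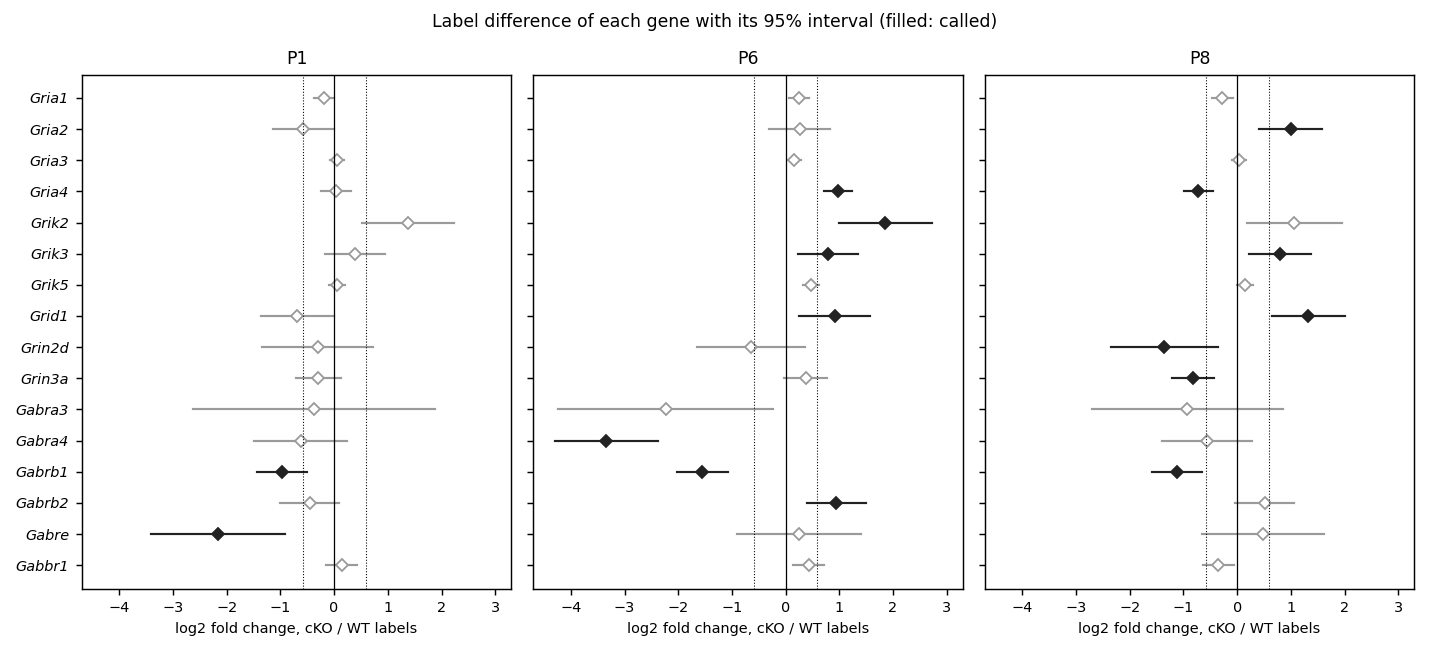
Log2 fold change between the labels cKO and WT (horizontal axes) with its 95% interval for each of 16 receptor genes at P1, P6 and P8, filled where called, with dotted lines at a fold change of 1.5. *Gria4* is filled on the right at P6 and on the left at P8, while *Gria3* is not filled in any panel.

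Among the AMPA receptor genes, *Gria3*, which encodes GluA3, had P1 levels of 97.6 and 101.1 CPM under the label WT and 103.3 and 103.0 CPM under the label cKO. The P6 levels were 197.3 and 178.0 CPM (WT) and 205.6 and 215.3 CPM (cKO), and the P8 levels 153.2 and 144.5 CPM (WT) and 152.3 and 151.4 CPM (cKO). The libraries of the 2 labels overlapped at P8 only, and at P1 and P6 the cKO-labelled ones were slightly higher. The fold differences were 1.04, 1.12 and 1.02, with 95% intervals of 0.949 to 1.13, 1.02 to 1.23 and 0.933 to 1.11, so that at each time point the interval held no difference as large as the 1.5-fold limit. Its level differed more between time points, by a log2 change of 0.92 (SE 0.06) from P1 to P6 under the label WT and 1.03 (SE 0.06) under the label cKO (adjusted p 1.73e-06 and 1.23e-06).

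*Gria4*, which encodes GluA4, behaved differently. It had 8.13 and 6.75 CPM (WT) and 8.06 and 7.17 CPM (cKO) at P1, where the libraries overlapped. At P6 the values were 23.4 and 26.9 CPM against 47.9 and 51.0, so that both cKO-labelled libraries were higher, and the gene was up-regulated 1.97-fold (log2 difference 0.98, SE 0.12, adjusted p = 2.74e-04). At P8 the order had turned, with 28.9 and 27.3 CPM under the label WT and 16.2 and 17.9 under the label cKO, a 1.65-fold fall (log2 difference -0.72, SE 0.12, adjusted p = 0.00118). Both calls held under each of the 17 alternatives that kept the fold limit of 1.5, with adjusted p up to 0.00346 at P6 and 0.0138 at P8, but both are under a fold of 2.

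*Gria2*, which encodes GluA2, had the lowest mean level of the 4 per kilobase over the 12 libraries, although at P1 under the label WT the share of *Gria4* (5.69%) was below its own (6.24%). Its P1 values were 18.2 and 22.1 CPM (WT) and 11.7 and 15.4 CPM (cKO). The P6 values were 12.3 and 10.5 (WT) and 10.7 and 16.5 (cKO), and the P8 values 3.62 and 5.40 (WT) and 9.63 and 8.41 (cKO). The P8 libraries were apart, and there *Gria2* rose 1.99-fold (log2 difference 0.99, SE 0.26, adjusted p = 0.0153). This call was lost without the first P8 library labelled WT (log2 difference 0.74, adjusted p = 0.104) or the first labelled cKO (0.89, adjusted p = 0.0780), and it is just under a fold of 2. At P1 both cKO-labelled libraries were lower, by a log2 difference of -0.57 that did not pass the adjusted test (adjusted p = 0.226). *Gria1*, which encodes GluA1, had 49.5 and 49.5 CPM (WT) and 43.7 and 43.1 CPM (cKO) at P1, 29.0 and 29.3 (WT) and 32.8 and 36.6 (cKO) at P6, and 20.5 and 17.9 (WT) and 15.5 and 16.3 (cKO) at P8. Its libraries never overlapped, but the log2 differences of -0.19, 0.25 and -0.28 were all under the fold limit (adjusted p 0.230, 0.0594 and 0.0330).

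At P8, then, *Gria2* was up-regulated and its paralogue *Gria4* down-regulated in the same libraries, and for that reason the 250 bases before their RefSeq starts are printed, 5′ to 3′ on the strand of the gene, with each CG dinucleotide in capitals. Both genes lie on the minus strand of GRCm38.p6, *Gria2* at chr3:80802836-80803085 and *Gria4* at chr9:4796235-4796484.
Gria2: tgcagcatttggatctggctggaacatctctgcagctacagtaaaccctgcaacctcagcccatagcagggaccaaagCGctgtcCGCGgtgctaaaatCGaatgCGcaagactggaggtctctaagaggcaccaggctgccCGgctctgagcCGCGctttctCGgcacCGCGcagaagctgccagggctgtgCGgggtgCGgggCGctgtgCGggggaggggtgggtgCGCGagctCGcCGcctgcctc
Gria4: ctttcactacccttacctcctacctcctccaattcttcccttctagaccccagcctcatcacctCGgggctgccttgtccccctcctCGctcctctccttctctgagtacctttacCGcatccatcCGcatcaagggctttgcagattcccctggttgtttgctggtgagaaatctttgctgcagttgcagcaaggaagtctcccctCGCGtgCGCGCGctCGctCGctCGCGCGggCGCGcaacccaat
The *Gria2* window held 19 CG dinucleotides and the *Gria4* window 16, against a median of 6 over all 32851 promoter windows of the same table cut to the same length. Neither held GGGCGG (on either strand) or TATAAA (on either strand), which were found in 32.7% and 12.4% of all windows. Of the 17 receptor genes 12 matched the RefSeq table, with 16 windows, and their median was 10.5 CG dinucleotides. TGACGTCA and CACGTG were in 0 of the 16 windows, beside 1.55% and 6.02% of all windows.

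As shares of the AMPA reads per kilobase, *Gria3* made up 48.6% ± 0.59 (SD, n = 2) under the label WT at P1, 66.6% ± 2.42 at P6 and 65.6% ± 0.22 at P8, and 53.1% ± 0.05, 59.6% ± 0.99 and 72.3% ± 0.84 under the label cKO. The *Gria4* share was 14.0% ± 1.87 (WT) and 21.9% ± 0.11 (cKO) at P6 and 19.4% ± 0.08 and 12.7% ± 0.79 at P8. *Gria1* went from 39.5% ± 0.53 at P1 to 13.8% ± 0.71 at P8 under the label WT, and from 36.4% ± 0.30 to 12.3% ± 0.33 under the label cKO. *Gria2* contributed 1.27% ± 0.41 and 2.72% ± 0.28 at P8. These shares depend on the length assumed for each gene; with the longest transcript in place of all exons, *Gria3* came to 60.9% for P1 WT and 80.9% for P8 cKO. Summed over the 4 subunits, AMPA message per kilobase was 28.6 ± 1.04 CPM (WT) and 35.8 ± 1.76 CPM (cKO) at P6 and 23.0 ± 1.03 and 21.3 ± 0.16 CPM at P8.

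**Figure D3:**
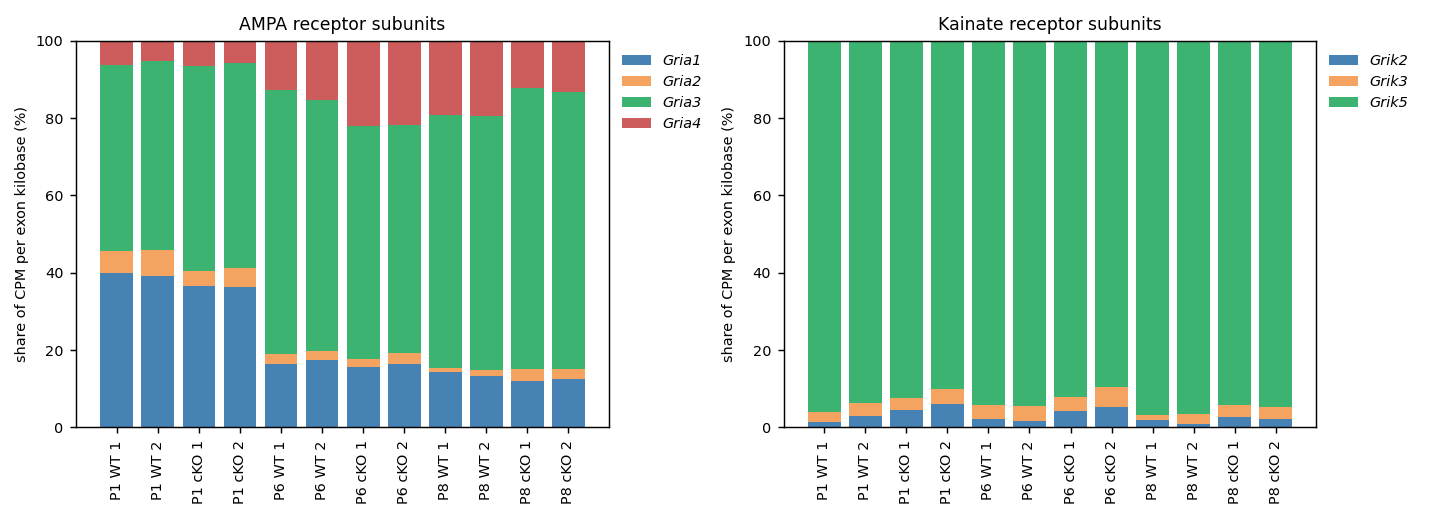
Stacked bars for each of the 12 libraries, giving the share (%) of each gene in the CPM per exon kilobase of the AMPA subunits and of the kainate subunits. *Gria1* shrinks from P1 to P8 in both labels, and *Grik5* takes at least 89.6% of the kainate message in each library.

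Among the kainate receptor genes *Grik5*, the high-affinity subunit GluK5 that forms no channel by itself, made up between 90.9% and 96.6% of the message per kilobase in the 6 groups. It had 54.5 and 54.0 CPM (WT) and 79.4 and 71.7 CPM (cKO) at P6, a 1.39-fold difference under the fold limit (log2 difference 0.48, SE 0.07, adjusted p = 6.91e-04). At P1 (53.9 and 51.9 against 56.3 and 53.7 CPM) the libraries overlapped, and at P8 (36.9 and 35.4 against 39.2 and 41.0 CPM) the log2 difference was 0.15 (adjusted p = 0.120). The channel-forming subunits were rarer. *Grik2*, for GluK2, had 3.14 and 2.35 CPM under the label WT at P6 and 9.09 and 10.7 under the label cKO. This was a 3.61-fold rise (log2 difference 1.85, SE 0.38, adjusted p = 0.00646), lost without the second P6 library labelled WT (log2 difference 1.65, adjusted p = 0.0530). At P1 its values were 2.16 and 4.17 against 7.14 and 9.32 CPM (log2 difference 1.37, adjusted p = 0.0546) and at P8 1.77 and 0.845 against 2.95 and 2.48 CPM (1.06, adjusted p = 0.0658). The cKO-labelled libraries were higher at all 3 time points, while the test called P6 alone; the P1 and P8 differences of *Grik2* were each called in 4 of 17 alternatives.

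*Grik3*, for GluK3, was one of the genes called in the same direction at more than 1 time point. Its levels were 2.45 and 3.17 CPM (WT) and 3.32 and 4.07 CPM (cKO) at P1, 3.56 and 3.79 (WT) and 5.59 and 7.17 (cKO) at P6, and 1.01 and 1.59 (WT) and 2.28 and 2.27 (cKO) at P8. The libraries did not overlap at any time point, and the gene rose 1.73-fold at P6 (log2 difference 0.79, SE 0.25, adjusted p = 0.0433) and 1.74-fold at P8 (0.80, SE 0.26, adjusted p = 0.0388). Both calls were near the threshold. The P6 call was lost without any 1 of the 4 P6 libraries, the 2 P1 or the 2 P8 libraries labelled cKO (log2 difference 0.60 to 0.96, adjusted p 0.0518 to 0.209). The P8 call was lost without either P6 library labelled WT, the first P8 library labelled WT or either P8 library labelled cKO (0.51 to 0.80, adjusted p 0.0530 to 0.212), and in edgeR on the compared groups alone (0.78, adjusted p = 0.0996). Because the direction recurred, its promoter window is shown in the same way. It lies on the plus strand at chr4:125490446-125490695 of GRCm38.p6.
Grik3: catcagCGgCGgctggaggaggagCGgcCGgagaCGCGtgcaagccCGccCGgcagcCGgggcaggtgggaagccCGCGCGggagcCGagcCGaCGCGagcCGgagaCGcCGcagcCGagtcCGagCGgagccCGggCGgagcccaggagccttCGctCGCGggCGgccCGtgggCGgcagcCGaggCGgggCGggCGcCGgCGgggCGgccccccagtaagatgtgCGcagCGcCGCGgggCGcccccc
With 42 CG dinucleotides it exceeded 99.1% of all windows, and GGGCGG occurred 6 times on either strand.

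*Grid1*, which encodes the delta receptor GluD1, a relative of the glutamate channels that binds cerebellin-type proteins across the synapse, had 2.11 and 2.64 CPM (WT) and 1.04 and 1.93 CPM (cKO) at P1. At P6 it had 2.58 and 2.45 against 4.40 and 5.07 CPM, and at P8 1.65 and 1.19 against 3.69 and 3.42. The cKO-labelled libraries were lower at P1 and higher at P6 and P8. The rise at P6 was 1.88-fold and stood at the threshold (log2 difference 0.91, SE 0.29, adjusted p = 0.0496), and it was lost in 12 of 17 alternatives, among them the removal of any 1 P6 or P8 library or either P1 library labelled WT (0.80 to 1.01, adjusted p 0.0528 to 0.173). The rise at P8 was 2.51-fold (1.33, SE 0.30, adjusted p = 0.00765) and was lost only without the second P8 library labelled WT (1.11, adjusted p = 0.0627).

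Of the NMDA receptor genes, *Grin3a* encodes GluN3A, a glycine-binding subunit of the young brain, and *Grin2d* encodes the glutamate-binding GluN2D. *Grin3a* had 1.96 and 1.57 CPM (WT) and 1.41 and 1.46 CPM (cKO) at P1, 5.28 and 4.49 (WT) and 5.89 and 6.75 (cKO) at P6, and 6.81 and 6.42 (WT) and 3.41 and 4.06 (cKO) at P8. It fell 1.77-fold at P8 (log2 difference -0.83, SE 0.17, adjusted p = 0.00534), a call that held in the same 17 alternatives but is under a fold of 2. *Grin2d* had 1.83 and 1.22 CPM (WT) and 1.80 and 0.650 CPM (cKO) at P1, 2.54 and 2.44 (WT) and 2.06 and 1.12 (cKO) at P6, and 6.17 and 6.11 (WT) and 2.10 and 2.70 (cKO) at P8. The libraries overlapped at P1 only. Its 2.56-fold fall at P8 (log2 difference -1.35, SE 0.44, adjusted p = 0.0408) was lost without any 1 of the 4 P8 libraries or either P6 library labelled WT (-1.55 to -1.19, adjusted p 0.0562 to 0.189). The annotated span of *Grin2d* overlaps *Kdelr1* and that of *Grin3a* overlaps *Ppp3r2*. Spans include introns and exons were not compared, so whether reads could have been counted for either gene was not tested. Spans of other receptor genes overlap annotated genes too, that of *Grik2* with 6. *Grin1*, whose product every NMDA receptor needs, was not analysed here.

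The difference called at all 3 time points was in a GABA-A gene. *Gabrb1*, for the beta1 subunit, had 24.3 and 20.9 CPM under the label WT and 11.9 and 11.2 under the label cKO at P1. At P6 it had 18.8 and 14.8 against 4.54 and 6.94 CPM, and at P8 13.6 and 16.9 against 6.88 and 7.23. Both cKO-labelled libraries were below both labelled WT throughout. *Gabrb1* fell 1.96-fold at P1 (log2 difference -0.97, SE 0.20, adjusted p = 0.0181), 2.93-fold at P6 (-1.55, SE 0.21, adjusted p = 5.61e-04) and 2.17-fold at P8 (-1.11, SE 0.21, adjusted p = 0.00250). The calls at P6 and P8 held in every alternative. That at P1 was lost without the first P1 library labelled WT (-0.86, adjusted p = 0.102) or the first (-1.02, adjusted p = 0.0743) or second (-0.92, adjusted p = 0.102) labelled cKO.

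*Gabrb2*, for the beta2 subunit, had 2.96 and 1.81 against 3.99 and 5.21 CPM at P6, a 1.93-fold rise (0.95, SE 0.25, adjusted p = 0.0197). This call was lost without the second P6 library of either label (0.63 and 0.74, adjusted p 0.104 and 0.112), and in edgeR on the compared groups alone (0.94, adjusted p = 0.0996). The *Gabrb2* values were 4.01 and 3.37 against 2.79 and 2.58 CPM at P1 (-0.46, adjusted p = 0.333) and 3.36 and 3.28 against 4.61 and 4.88 at P8 (0.51, adjusted p = 0.140).

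*Gabra4*, for the alpha4 subunit, had 3.88 and 2.52 CPM under the label WT at P6 and 0.320 and 0.311 under the label cKO. This was the largest difference of any receptor gene that was called, a 10.1-fold fall (log2 difference -3.34, SE 0.43, adjusted p = 3.93e-04), and no alternative lost it. The libraries overlapped at P1 (2.70 and 1.23 against 1.38 and 1.16 CPM). At P8 the values were 2.94 and 2.27 against 1.72 and 1.81 CPM (-0.56, 95% interval -1.41 to 0.28, adjusted p = 0.291). *Gabra4* and *Gabrb1* lie head to head on chromosome 5, on opposite strands, and their GENCODE spans (71569749 to 71658308 and 71658113 to 72149037) share 196 bases at the 5′ ends. Counting of reads from those bases for either gene is possible, since the sources used here do not give the strand setting of the counting. The promoter windows before these overlapping starts lie at least partly in exons of the partner gene and are not shown.

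*Gabre*, for the epsilon subunit, had 2.95 and 1.49 CPM (WT) and 0.408 and 0.580 CPM (cKO) at P1, a 4.47-fold fall (log2 difference -2.16, SE 0.55, adjusted p = 0.0402). The call was lost in 7 of 17 alternatives, among them the removal of the first P1 library labelled WT, either P1 library labelled cKO or either P8 library labelled cKO (-2.43 to -1.59, adjusted p 0.0640 to 0.205), and with the replicate number as a block (-2.10, adjusted p = 0.0604). At P6 the libraries overlapped (1.12 and 2.42 against 2.80 and 1.42 CPM), and at P8 they were only just apart (2.27 and 1.36 against 2.78 and 2.27 CPM; 0.48, adjusted p = 0.522). *Gabra3*, for the alpha3 subunit, is the nearest receptor gene to *Gabre* on chromosome X, on the same strand, with the protein-coding gene *Magea10* between them. It had 0.772 and 0.759 against 0.168 and 0.156 CPM at P6 (-2.23, 95% interval -4.23 to -0.23, adjusted p = 0.10; called in 4 of 17 alternatives) and 1.82 and 2.22 against 1.06 and 1.06 CPM at P8 (-0.93, adjusted p = 0.416). At P1 it had at most 0.211 CPM in any library and 0 counts in the first labelled cKO.

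*Gabbr1*, for the GABA-binding subunit of the GABA-B receptor, had 40.7 and 36.5 CPM (WT) and 43.0 and 42.3 CPM (cKO) at P1, 41.9 and 47.7 (WT) and 56.2 and 64.6 (cKO) at P6, and 48.5 and 54.8 (WT) and 45.1 and 35.8 (cKO) at P8. The libraries were apart at each time point, with those labelled cKO above at P1 and P6 and below at P8. The differences stayed under the fold limit, 1.35-fold up at P6 (log2 difference 0.43, SE 0.13, adjusted p = 0.0359) and 1.28-fold down at P8 (-0.36, SE 0.13, adjusted p = 0.0595).

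Between time points the receptor genes also changed within a label. Each time point had its own cultures, so that age of the animals, preparation and cell make-up cannot be told apart. From P1 to P6 under the label WT, 3 rose and 3 fell, beside 12.2% and 10.9% of all genes. *Gria3*, *Gria4* and *Grin3a* were those that rose, *Gria4* by 3.38-fold and *Grin3a* by 2.77-fold, and *Gria1* and *Gria2* were among those that fell. Under the label cKO the same step had 7 rises and 2 falls, beside 11% and 10.4%. There *Gria4* rose 6.50-fold, *Grin3a* 4.40-fold, *Grid1* 3.19-fold and *Gabre* 4.26-fold, while *Gabra4* fell 4.0-fold and *Gabrb1* 2.01-fold. *Gria3*, *Gabrb2* and *Grik3* made up the rest of the rises. The median log2 change of the 17 genes was 0.08 under the label WT and 0.50 under the label cKO.

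From P6 to P8, 1 gene rose and 5 fell under the label WT, beside 8.66% and 10.3% of all genes. *Grin2d* was the one that rose, 2.47-fold, and *Grik3* (2.82-fold), *Gria2* (2.51-fold), *Gria1* and *Grik5* were among those that fell. The label cKO had 2 rises and 7 falls, beside 11.9% and 12.2%. *Gabra4* returned with a 5.56-fold rise and *Gabra3* rose 6.50-fold. *Gria4* fell 2.90-fold, *Grik2* 3.66-fold, *Grik3* 2.80-fold, *Gria1* 2.19-fold, *Grik5* 1.88-fold and *Grin3a* 1.69-fold. Both steps of a label share its P6 libraries.

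Some of these calls within a label rested on single libraries. The *Gabra3* rise (adjusted p = 0.0374) was lost without any 1 of the 8 P6 and P8 libraries (adjusted p 0.0511 to 0.136), and the *Grin2d* rise (adjusted p = 0.0469) without any 1 of the 6 libraries labelled WT or either P8 library labelled cKO (0.0533 to 0.162). From P1 to P6 the *Gria2* fall under the label WT was lost without the second P1 or either P6 library of that label (adjusted p 0.0606 to 0.139). Under the label cKO the *Gabrb2* and *Grik3* rises were lost without either P1 or the second P6 library of that label (0.0893 to 0.170 and 0.0569 to 0.168), that of *Gabrb2* also in edgeR on the compared groups alone (0.0582), and the *Gabre* rise without the first P1 or first P6 one (0.0902 and 0.0944). From P6 to P8 the *Grin3a* fall was lost without the first P8 library labelled cKO (0.0598). *Gria1* under the label WT went under the fold limit without the second P8 library (log2 change -0.51), and *Grik5* without that one (-0.56) or the first P6 one (-0.58), with DESeq2 size factors in edgeR (-0.57) and with DESeq2 on all 12 libraries (-0.57).

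Whether the label difference itself changed was tested with an interaction term, called by adjusted p alone. From P1 to P6 the difference moved up in 6 receptor genes and down in 1, beside 7.12% and 8.19% of all genes. From P6 to P8 it moved up in 2 and down in 5, beside 12.6% and 8.83%, and from P1 to P8 up in 4 and down in 1, beside 14% and 11.7%. *Gria4* was called in all 3 terms, by 0.94 (SE 0.17) from P1 to P6, -1.70 (SE 0.17) from P6 to P8 and -0.76 (SE 0.17) from P1 to P8. *Gabra4* moved by -2.71 (SE 0.56) and then by 2.77 (SE 0.56). For *Gabrb1* none of the 3 terms was called. The 3 terms share libraries.

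The genes that work with these receptors were taken from lists of auxiliary subunits, scaffolds, extracellular ligands and enzymes of transmitter metabolism. Of the 68 listed genes 46 were in the table and all 46 were tested. At P1, 1 (2.17%) was called up and 5 (10.9%) down, beside 4.01% and 0.892% of all genes tested. At P6 these were 6 (13.0%) and 6 (13.0%), beside 7.16% and 6.38%, and at P8 5 (10.9%) and 12 (26.1%), beside 11.2% and 8.37%, with median log2 differences of -0.03, 0.03 and -0.19. None of the 6 genes for transmitter synthesis and breakdown was called at any time point. At P8, 5 of 10 AMPA auxiliary genes fell and 0 rose, and of 9 GABA-A partner genes 3 rose and 1 fell.

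*Neto2*, the 1 auxiliary gene of the kainate receptor in the table, was the largest fall at P1, from a mean of 112.1 CPM to 30.3 CPM (log2 difference -1.89, SE 0.12, adjusted p = 1.43e-05). It fell at P6 (-1.20) and P8 (-1.04) too, at which its receptor subunit *Grik3* was up-regulated. *Nptx2*, a secreted pentraxin that clusters AMPA receptors, rose the most at P1 (1.59, SE 0.36, adjusted p = 0.0254) and P8 (2.43, SE 0.37, adjusted p = 7.75e-04), from means of 0.421 and 0.363 CPM to 1.28 and 1.97 CPM. The P1 call of *Nptx2* was lost without the first library labelled WT or the second labelled cKO and in edgeR on the compared groups alone, with adjusted p up to 0.151 over the alternatives. At P6 the largest rise was that of *Cacng8*, an AMPA auxiliary subunit, from 3.12 to 6.34 CPM (1.02, SE 0.22, adjusted p = 0.00841), which was lost without the first P6 library labelled WT and in edgeR on the compared groups alone (highest adjusted p 0.0585). The largest fall at P6 was in *Shisa9*, another AMPA auxiliary subunit, from 17.2 to 5.18 CPM (-1.73, SE 0.24, adjusted p = 6.86e-04). *Shank1*, a scaffold of glutamate synapses, fell the most at P8, from 6.76 to 1.45 CPM (-2.23, SE 0.31, adjusted p = 4.34e-04).

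Singled out after their values were seen, *C1ql1* and *Kctd12* also belong here. *C1ql1*, a secreted ligand of the C1q family, fell at P1 (-1.76), P6 (-1.45) and P8 (-2.10), and the first library labelled cKO decided the call at P1 (adjusted p = 0.0567 without it) and at P6 (0.0637). *Kctd12*, an auxiliary subunit of the GABA-B receptor, fell at P6 from 293 to 164 CPM (-0.84, SE 0.11, adjusted p = 5.78e-04) and at P8 from 693 to 263 CPM (-1.40, SE 0.11, adjusted p = 1.42e-05), while *Gabbr1* was not called.

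**Figure D4:**
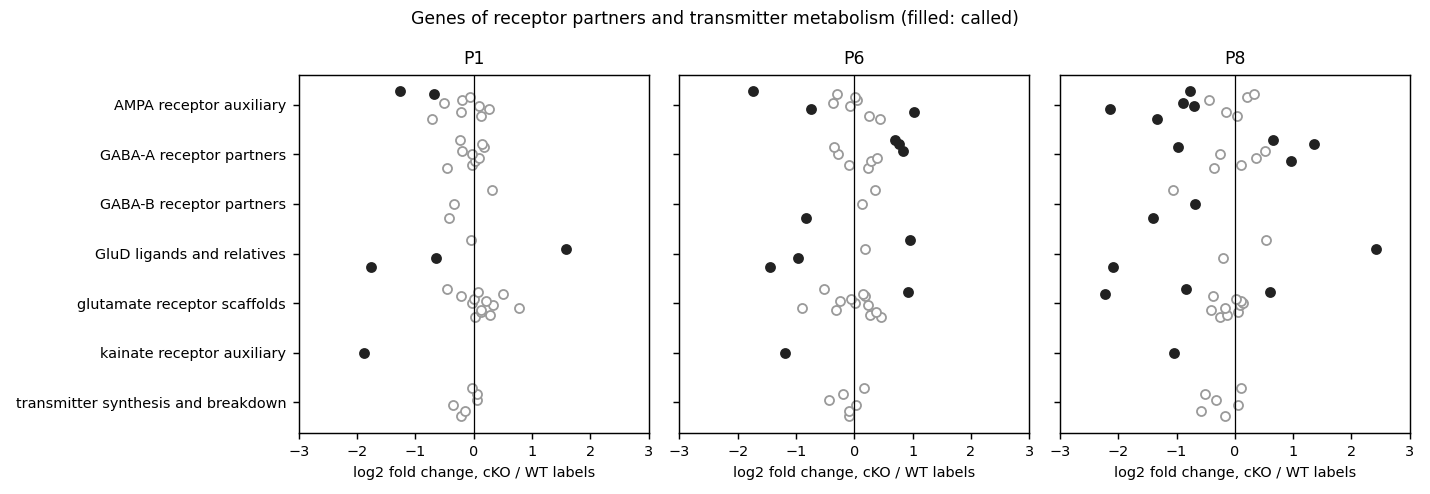
Log2 fold change between the labels cKO and WT (horizontal axes) for the 46 partner genes tested, 1 circle each, in rows by list and in panels for P1, P6 and P8; filled circles were called. *Neto2*, alone in its row, is filled on the left in each panel, and the row of transmitter synthesis and breakdown holds no filled circle.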

How the data were processed

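Counts were deposited by the authors as whole numbers of reads per gene, not normalized, made from captured mRNA after alignment by Hisat2 (GRCm38). The sources used here do not say how reads were counted, with which annotation and strand setting, or what became of multi-mapping reads. Counts were scaled by TMM and fitted with edgeR 4.0.16 (R 4.3.3, limma 3.58.1), with 1 mean for each of 6 groups over all 12 libraries, after filterByExpr with a minimum count of 10. The quasi-likelihood test gave p, adjusted by Benjamini-Hochberg over 17938 genes. Standard errors are the log2 change over the root of F, and 95% intervals use the t distribution of the fit. The fit was tested on simulated data. Positions and exon lengths are from GENCODE vM21 and promoters from RefSeq (GRCm38.p6).

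Every receptor gene with a mean of at least 1 CPM or called between labels was to be described (1 of the receptor genes counted is not reported here), and of the partner lists the largest rise and fall at each time point. The members, the lists of partners and cell type markers and the tests were chosen with earlier results of these data known. Alternatives were DESeq2 1.42.0, its size factors, no filter, a replicate block, the compared groups alone, a fold of 2, unadjusted p, other expression limits, and each library left out, a group left with 1 library being assumed to vary like the others; for the partner lists and gene lengths they were added after seeing the data.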

Additional observations from a re-analysis of the deposited data

Results flagged for a closer look

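The difference between the labels changed with time for 10 receptor genes by the interaction terms in edgeR (adjusted p below 0.05), given as the change of the log2 difference (cKO minus WT). These terms share libraries and are not independent of each other. From P1 to P6 it moved up in *Grid1* by 1.59, *Gabrb2* by 1.40, *Gria4* by 0.94, *Gria1* by 0.44 and *Grik5* by 0.42, and it moved down in *Gabra4*, with -2.71. From P6 to P8 it moved up in *Gabra4* by 2.77. It moved down over that step in *Gria4* (-1.70), *Grin3a* (-1.20), *Gabbr1* (-0.78), *Gria1* (-0.53) and *Grik5* (-0.33). From P1 to P8 it moved up in *Gabre* by 2.64, *Grid1* by 2.01 and *Gria2* by 1.57, and down in *Gria4* (-0.76). The terms nearest the threshold were those of *Gria1* from P1 to P6 (adjusted p = 0.0366) and *Grik5* from P6 to P8 (0.0365), each lost in 10 of 17 alternatives. For *Gria1* these included the removal of any 1 P1 library, either P6 library labelled WT, the second P6 library labelled cKO or either P8 library labelled cKO (adjusted p 0.0545 to 0.101), and for *Grik5* that of any 1 P8 library, either P1 or P6 library labelled WT or the first P6 library labelled cKO (0.0532 to 0.120). Without 1 library, other terms were lost as well, and those of *Gabrb2* and *Grid1* from P1 to P6 also in edgeR on the compared groups alone (adjusted p 0.0675 and 0.0630). For the step from P1 to P6 these were *Gabrb2* (the first P1 library labelled WT, either P1 library labelled cKO or the second P6 library of either label, adjusted p 0.0527 to 0.0802), *Grid1* (the second P1 library labelled WT, the first P1 library labelled cKO, any P6 library or either P8 library labelled cKO, 0.0536 to 0.102) and *Grik5* (the first P1 library labelled WT or the second labelled cKO, 0.0582 and 0.0579). From P6 to P8 they were *Gabbr1* (the second P8 library labelled WT, 0.0514) and *Gria1* (the first P8 library labelled cKO, 0.0503), and from P1 to P8 *Gabre* (6 of its 8 libraries, 0.0532 to 0.0959).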

How the results depend on the processing

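Of the 17 receptor gene changes called between the labels, 7 were called under each of the 17 alternatives that kept the adjusted p and the fold limit of 1.5, and none reversed. Of these 7, a fold of at least 2 lost *Gria4* at P6 and P8 and *Grin3a* at P8. Same-numbered libraries showed little shared deviation, with correlations of -0.063 to 0.044 over 15 pairs of groups. This cannot show whether they were paired by litter or preparation. With the replicate block the falls at P1 went from 2 to 1, and no other count moved by over 1.5 times. The falls at P1 were also 1 in edgeR on the compared groups alone and 1 with a fold of at least 2. The rises at P1 were 1 with DESeq2 and 1 with an unadjusted p. A fold of at least 2 left 1 rise at P6, 2 rises and 2 falls at P8 and 2 changes from P1 to P6 under the label WT. For the partner genes it left 3 falls at P1, 1 rise and 3 falls at P6, and 2 rises and 6 falls at P8, and the compared groups alone gave 0 rises at P1 and 3 at P8. Leaving out a library gave 0 to 1 rises and 0 to 2 falls at P1, 1 to 4 rises at P6, 2 to 5 rises at P8, 3 to 8 changes from P6 to P8 under the label WT, and 4 to 7 interaction calls from P1 to P6 and 4 to 7 from P6 to P8; of the partner genes, 0 to 1 rose and 3 to 5 fell at P1. The single rise at P6 was left without the second P6 library labelled WT. The cause was not tested. Uncalled differences changed sign for *Gabra3* at P1 (-6.24 to 0.63, where 1 library had no count), *Gabra4* at P1 (-1.09 to 0.045), *Gabre* at P6 (-0.33 to 0.91), *Gria2* at P6 (-0.09 to 0.54), *Gria3* at P8 (-0.013 to 0.071), *Gria4* at P1 (-0.094 to 0.174) and *Grin2d* at P1 (-1.22 to 0.25). Genes at 1 CPM or more numbered 12 when every library had to reach it and 17 when 1 group mean did. With 2 libraries a group, genes of few counts had wide 95% intervals, such as -2.62 to 1.88 for *Gabra3* at P1.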
